A study of Mus musculus with 2 samples.

Results

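H3K27ac HiChIP, which counts read pairs that join distant segments of chromatin carrying acetylated lysine 27 of histone H3, was done on microglia sorted from mouse forebrain. The interactions described here are those of the day 6 library in which exactly 1 of the 2 joined 10 kb bins was an anchor, that is, an end of some called interaction, in the sham library, and the other bin was an anchor of no sham interaction. The bin with a sham anchor is called the kept bin and the other the new bin. By this rule 16327 of the 42905 day 6 interactions (38.1%, exact 95% interval 37.59 to 38.52) were members, and they held 370985 of 1074041 contacts, or 34.54%. Of the remaining day 6 interactions, 19230 (44.82%) joined 2 sham anchors and 7348 (17.13%) joined 2 new bins. Members were thus chosen by the called interactions of both libraries, so the numbers that follow describe them and carry no test.

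The sham group was 1 library from sham-operated mice, and the day 6 group was 1 library from mice taken at day 6 after MCAO, a transient block of the middle cerebral artery for 60 min that serves as a model of ischemic stroke. All mice were wild-type C57BL/6J males of 8 to 24 weeks with no transgene, and both libraries used 200000 to 300000 CD45(int)CD11b(int) cells of the sham-operated or ischemic hemisphere. How many animals each library came from was not given in the sources used here. With 1 library a group no difference can be set against the spread of replicates, and the intervals given, exact binomial for shares, exact Poisson for contacts and order-statistic for medians, cover counting error only. Read pairs without molecular identifiers are not independent molecules.

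Acetylated H3K27 marks active promoters and enhancers, the stretches of DNA from which transcription starts and those that raise it from a distance. An enhancer acts on a promoter that it meets in the folded chromatin, and a promoter can meet several enhancers. In the brain, microglia are the resident macrophages: they survey the tissue in health, and after ischemia they take up debris and release inflammatory and reparative factors. A contact in these lists says that 2 acetylated bins were ligated more often than the caller expected for their distance and coverage. It does not say that one of them regulates the other.

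The sham list held 19061 interactions between 18885 anchors and the day 6 list 32048 anchors, of which 16670 were common to both lists and 15378 were new. Coverage, the reads per bin, was scaled by the caller with a constant of 1099 reads for sham and 799 for day 6, so the longer list came from the library with lower coverage per bin. A pair of bins outside a list had no call at a q-value under 0.001, and its contacts are unknown, not 0. Of all 21887 protein-coding genes, 13423 lay on a day 6 interaction, so such a count for a marker list does not tell which cells were present. Of 30 homeostatic microglia genes, 29 lay on a day 6 interaction. Markers of other cells lay on day 6 interactions as well: 6 of 14 for monocytes and neutrophils (a sum of 684 contacts), 7 of 10 for border macrophages (672), 7 of 12 for lymphocytes (649), 3 of 10 for neurons (150), 5 of 8 for astrocytes (681), 4 of 9 for the oligodendrocyte lineage (754) and 6 of 9 for endothelial and mural cells (902). Defining markers without a day 6 interaction were S100a8, S100a9, Ly6c2 and Ly6g of neutrophils and monocytes, Snap25 and Syt1 of neurons, Aqp4 of astrocytes, Olig1 and Olig2 of the oligodendrocyte lineage and Cldn5 of endothelium. Of the markers with a day 6 interaction, those on a new bin numbered 1 of 6, 4 of 7, 4 of 7, 1 of 3, 4 of 5 (80%), 3 of 4 (75%) and 5 of 6 (83.33%) in the same order of cells, and their part in the results was not tested. Of all genes with a day 6 interaction, 50.06% lay on a new bin.

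A few promoters show what the members join. The 300 bases from 250 before to 50 after a transcription start were taken from RefSeq (GRCm38.p6) for 5 genes whose start lay in a new bin and 2 whose start lay in a kept bin. Fzr1 lay in the new bin with the most members, 11, Mlxip in 1 of the 3 new bins with 10, Canx was the gene without a sham interaction that had the most contacts on new bins, and Plaur and Tgfbi stand for tissue repair. Klf6 and Hivep2 lay in kept bins with 8 and 9 members. Sequences run 5′ to 3′ on the strand of the gene, and capitals mark matches, on either strand, to the motifs spelled out after them.
Fzr1 (chr10:81378321-81378620, minus strand): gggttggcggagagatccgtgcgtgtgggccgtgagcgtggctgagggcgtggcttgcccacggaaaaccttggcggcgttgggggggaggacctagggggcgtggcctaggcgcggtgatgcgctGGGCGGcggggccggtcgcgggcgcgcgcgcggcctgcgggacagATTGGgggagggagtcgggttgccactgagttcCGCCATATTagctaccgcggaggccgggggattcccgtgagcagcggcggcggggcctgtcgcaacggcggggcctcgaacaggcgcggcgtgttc
Mlxip (chr5:123394548-123394847, plus strand): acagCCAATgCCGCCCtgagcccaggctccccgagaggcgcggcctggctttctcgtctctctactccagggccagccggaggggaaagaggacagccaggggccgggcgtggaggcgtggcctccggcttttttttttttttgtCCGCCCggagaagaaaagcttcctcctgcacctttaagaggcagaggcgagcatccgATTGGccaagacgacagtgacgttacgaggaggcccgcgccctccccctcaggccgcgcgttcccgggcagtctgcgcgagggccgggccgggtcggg
Canx (chr11:50325624-50325923, minus strand): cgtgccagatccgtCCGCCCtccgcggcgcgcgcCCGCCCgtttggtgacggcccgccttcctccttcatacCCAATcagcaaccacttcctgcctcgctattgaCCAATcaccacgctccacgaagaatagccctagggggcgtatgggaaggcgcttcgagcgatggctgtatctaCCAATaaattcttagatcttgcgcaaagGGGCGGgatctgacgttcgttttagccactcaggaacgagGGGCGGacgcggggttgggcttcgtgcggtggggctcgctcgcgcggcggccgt
Plaur (chr7:24462233-24462532, plus strand): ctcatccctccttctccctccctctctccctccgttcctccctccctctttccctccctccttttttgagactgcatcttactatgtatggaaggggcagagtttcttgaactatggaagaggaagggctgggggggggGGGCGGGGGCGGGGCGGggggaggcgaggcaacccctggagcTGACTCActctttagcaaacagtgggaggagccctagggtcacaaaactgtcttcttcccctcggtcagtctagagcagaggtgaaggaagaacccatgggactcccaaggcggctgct
Tgfbi (chr13:56609336-56609635, plus strand): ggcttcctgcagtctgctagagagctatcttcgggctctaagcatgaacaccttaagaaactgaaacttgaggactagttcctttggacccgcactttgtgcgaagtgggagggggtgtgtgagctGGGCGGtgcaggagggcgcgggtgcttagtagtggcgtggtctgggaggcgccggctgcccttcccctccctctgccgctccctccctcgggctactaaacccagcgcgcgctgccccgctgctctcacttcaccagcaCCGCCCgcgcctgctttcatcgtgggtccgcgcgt
Klf6 (chr13:5861239-5861538, plus strand): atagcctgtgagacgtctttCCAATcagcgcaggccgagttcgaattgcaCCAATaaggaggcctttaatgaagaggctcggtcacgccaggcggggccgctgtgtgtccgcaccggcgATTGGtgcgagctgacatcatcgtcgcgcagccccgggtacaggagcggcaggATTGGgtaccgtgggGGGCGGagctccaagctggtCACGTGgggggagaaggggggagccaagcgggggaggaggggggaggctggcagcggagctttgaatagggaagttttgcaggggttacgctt
Hivep2 (chr10:13966129-13966428, plus strand): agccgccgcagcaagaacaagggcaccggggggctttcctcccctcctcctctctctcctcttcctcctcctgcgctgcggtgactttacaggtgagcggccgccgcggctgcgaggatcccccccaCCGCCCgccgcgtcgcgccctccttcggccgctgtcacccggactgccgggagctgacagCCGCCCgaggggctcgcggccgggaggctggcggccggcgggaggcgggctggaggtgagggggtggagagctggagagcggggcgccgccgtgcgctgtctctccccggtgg

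The motifs searched were the AP-1 site TGANTCA, the CRE TGACGTCA, the ETS site CCGGAAGT, the PU.1 site GAGGAAGT, the E-box of MiT factors CACGTG, the GC box GGGCGG, the CCAAT box CCAAT, the NRF1 site TGCGCATGC, the YY1 site AANATGGCG, the NF-kB site GGANTTTCC and the TATA box TATAAA, where N is any base. Both strands were searched, and the ETS and PU.1 sites share their last 6 letters. All 7 promoters held a GC box, and Klf6 held 4 CCAAT boxes. Plaur alone of the 7 held an AP-1 match, Fzr1 alone a YY1 match and Klf6 alone an E-box. A match of letters is no sign that a factor binds there.

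Promoter windows in new bins and in kept bins were alike in base content and differed little in these letters. A GC box stood in 60.93% (59.28 to 62.57) of 3440 windows in new bins, 64.24% (62.77 to 65.68) of 4236 in kept bins and 46.2% of all 21263 promoter windows. The median GC content was 60.67% in new bins and 61% in kept bins, against 56.33% in all windows. TATA boxes stood in 6.657% of new-bin windows and 7.295% of kept-bin windows, and in 12.6% of all windows. AP-1 matches were in 4.826%, 4.509% and 6.989% in the same order, and ETS matches in 8.256%, 8.664% and 5.145%. The NF-kB letters were in 1.366% (1.006 to 1.813) of new-bin windows, 1.322% (1 to 1.713) of kept-bin windows and 1.284% of all windows. The CRE stood in 2.907% of new-bin and 3.801% of kept-bin windows, the PU.1 site in 2.733% and 3.659%, the E-box in 9.738% and 10.65%, the CCAAT box in 38.11% and 37.63%, the NRF1 site in 2.994% and 2.833%, and the YY1 site in 4.477% and 5.264%. Over all windows these were 2.234%, 3.132%, 7.835%, 38.19%, 1.98% and 3.123% in the same order. Promoters at either end were thus richer in GC boxes and poorer in TATA boxes than all promoters, and common anchors without a member, at 60.78% and 7.254%, were close to them. Windows of 1 gene with several starts overlap, so the windows are not independent.

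Members spanned longer distances than interactions between 2 sham anchors. Their median distance was 200 kb (interquartile range 80 to 540 kb), against 140 kb (60 to 330) for interactions with no new bin and 170 kb (60 to 510) for those with 2. At 1 Mb or more lay 12.03% of members (11.53 to 12.54), 6.713% of interactions with no new bin and 11.65% of those with 2. Read by distance, members were 33.77% of day 6 interactions at 20 to 40 kb and 47.77% of those at 1 to 2 Mb. Contacts per member ranged from 8 to 197 with a median of 19 (interquartile range 15 to 26), below the median of 23 with no new bin and close to the 18 with 2. Set against the caller's expectation, the count was a median 4.22 times the expected one in members, 4.027 times with no new bin and 4.268 times with 2. Within a distance class these ratios lay closer together, at 4.833, 4.832 and 4.933 for 1 to 2 Mb, and they spread most at 20 to 40 kb, where they were 2.946, 2.751 and 3.234.

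**Figure D1:**
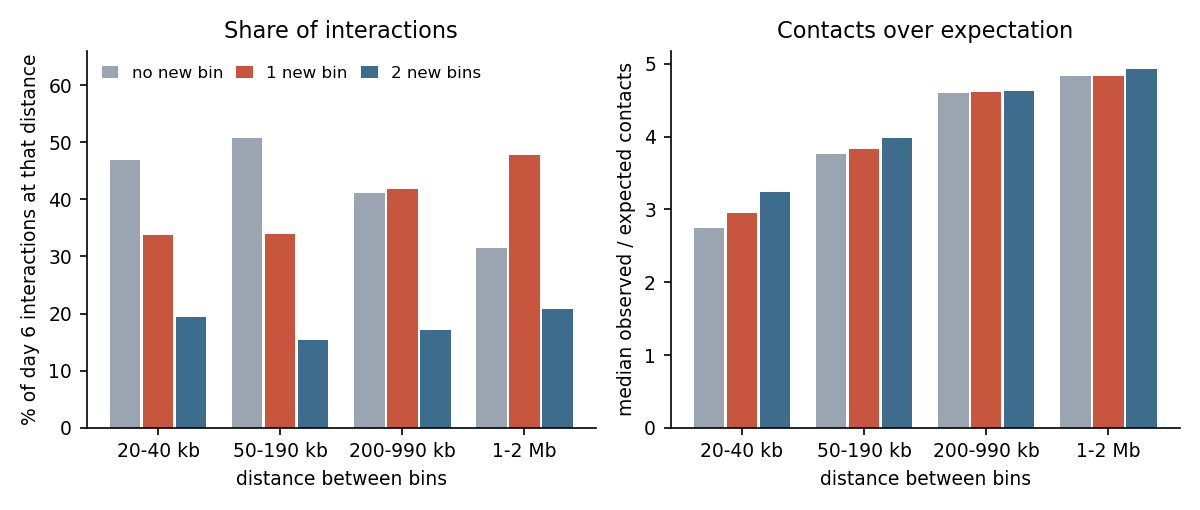
Day 6 interactions by distance between bins and number of new bins. Left, share of the interactions at each distance in percent; right, median ratio of observed to expected contacts. Members, in red, rise from 33.77% at 20 to 40 kb to 47.77% at 1 to 2 Mb, while the ratios at a given distance lie close together.

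Most new bins lay close to an anchor that the sham list already held. In 7394 of 16327 members (45.29%, 44.52 to 46.05) the new bin directly adjoined a sham anchor, and in 83.08% it lay within 5 bins of one. In 8.054% it lay more than 10 bins away, and the largest distance was 1910 kb. The kept bin is itself a sham anchor, so members of 50 kb or less lay within 5 bins by the rule. These include the 2426 members under 50 kb. Of the ends of interactions with 2 new bins, 32.68% adjoined a sham anchor and 20.2% lay more than 10 bins away. Their partner is never a sham anchor, so the shares beyond 10 bins are not like for like. Members spanned 20 kb or more, so no new bin adjoined its own kept bin. The adjoining anchor was rarely the partner of the kept bin: it had joined that same kept bin in sham in 18.43% of the 7394 members, and did so at day 6 in 14.4%. In 92.56% it was still an anchor at day 6.

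**Figure D2:**
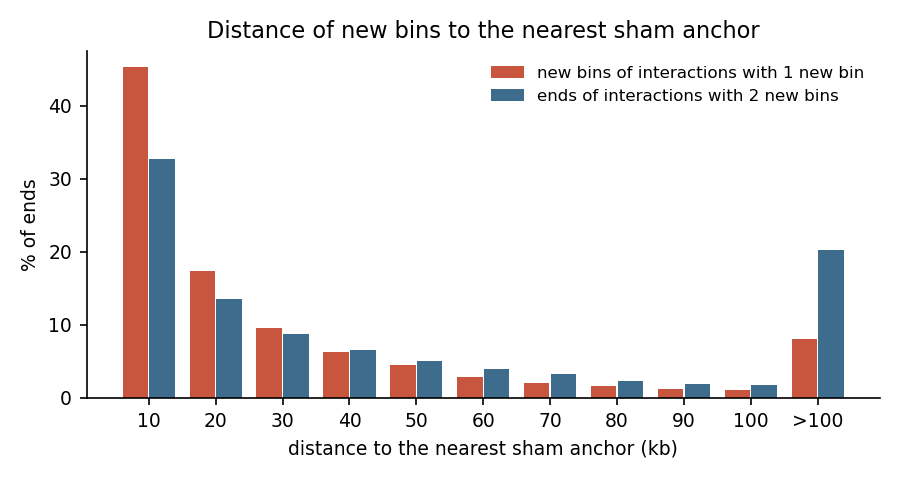
Distance in kb from a new bin to the nearest sham anchor, as percent of member interactions in red and of ends of interactions with 2 new bins in blue. The first bar holds 45.29% of members and 32.68% of the other ends, and the last, over 100 kb, holds 8.054% and 20.2%. For members the kept bin counts as a sham anchor, so no member of 100 kb or less can fall in the last bar.

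Members adjoining a sham anchor had a median of 20 contacts over 160 kb and 4.105 times the expected contacts. Members whose new bin lay more than 5 bins away had 16 contacts over 420 kb and 4.583 times the expected contacts. Such members are longer than 50 kb by the rule, as the kept bin is a sham anchor. Over all members, median contacts and ratio were 33 and 2.946 at 20 to 40 kb and 14 and 4.833 at 1 to 2 Mb. The groups were not matched for distance, so a difference apart from distance was not tested. New bins far from sham anchors held a transcription start more often, in 30.88% (28.94 to 32.88) of 2163 bins, against 22.83% (21.54 to 24.16) of 4017 adjoining bins. Their median coverage was 654 reads, against 717.

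Seen from the kept bin, the new partner often lay outside the reach of its sham interactions. That reach often rested on few calls: 48.99% of kept bins had only 1 sham interaction, which leaves the opposite side empty. How often day 6 interactions with no new bin lay outside it was not computed, so whether this is particular to members was not tested. In 48.89% of members the interaction was longer than the longest sham interaction of the kept bin, and in 31.33% it ran to a side on which the kept bin had no sham interaction. In 8.348% the kept bin had joined in sham a bin directly beside the new one, in 24.92% a bin within 5 bins of it, and in 47.62% no bin within 20 bins. The median distance from the new bin to the nearest sham partner of its kept bin was 180 kb. Of the sham interactions of kept bins, counted from each bin, 25.63% (25.04 to 26.22) were called again at day 6, against 28.36% (27.62 to 29.12) for common anchors without a member.

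Members were spread thinly over many bins. They used 10039 new bins, 65.28% of all new day 6 anchors, and 10153 kept bins, 60.91% of the common anchors. A single member was held by 61.05% of the new bins and 60.58% of the kept bins, and 5 or more by 222 new bins and 170 kept bins. The most members of a new bin were 11 and of a kept bin 14. Further, 49.18% of the new bins also joined another new bin, and 78.92% of the kept bins also joined another sham anchor.

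The new bin was usually the less covered end. Its day 6 coverage was a median -0.42 on the log2 scale relative to the kept bin (interquartile range -1.085 to 0.188), and it was the lower of the pair in 67.86% of members. New bins had a median of 692 reads (range 79 to 5077) and kept bins 891 at day 6. In 6.082% of members the new bin had over 2 times the coverage of the kept bin. The bin of Cd84, which had 3512 reads at day 6 and 8 members, was the most covered of the 10 new bins with the most members.

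Kept bins with many new partners had higher relative coverage at day 6 than in sham. Relative coverage is a bin's reads over its library's constant. Among kept bins with 1 member the median log2 ratio of day 6 to sham relative coverage was -0.05, and with 2, 3 and 4 members it was 0.08, 0.26 and 0.39. Among the 170 kept bins with 5 or more it was 0.64 (0.5724 to 0.7285), and 94.12% of them were higher at day 6. Common anchors without a member had a ratio of -0.11. The 2027 common anchors with 5 or more day 6 interactions to other sham anchors had 0.28 (0.2561 to 0.3031), with 78.84% higher. Transcription starts followed the same order, from 26.01% of kept bins with 1 member to 58.24% (50.44 to 65.74) of those with 5 or more, and from 23.4% to 44.59% of new bins. Relative coverage of all kept bins was more widely spread at day 6 (quartiles 0.8148 and 1.621) than in sham (0.9114 and 1.372). Kept bins with 5 or more members already had a median of 1.728 in sham. The bins are ranked here by day 6 calls and the caller's expectation includes coverage. How far coverage, its spread and calls can be told apart was not tested.

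**Figure D3:**
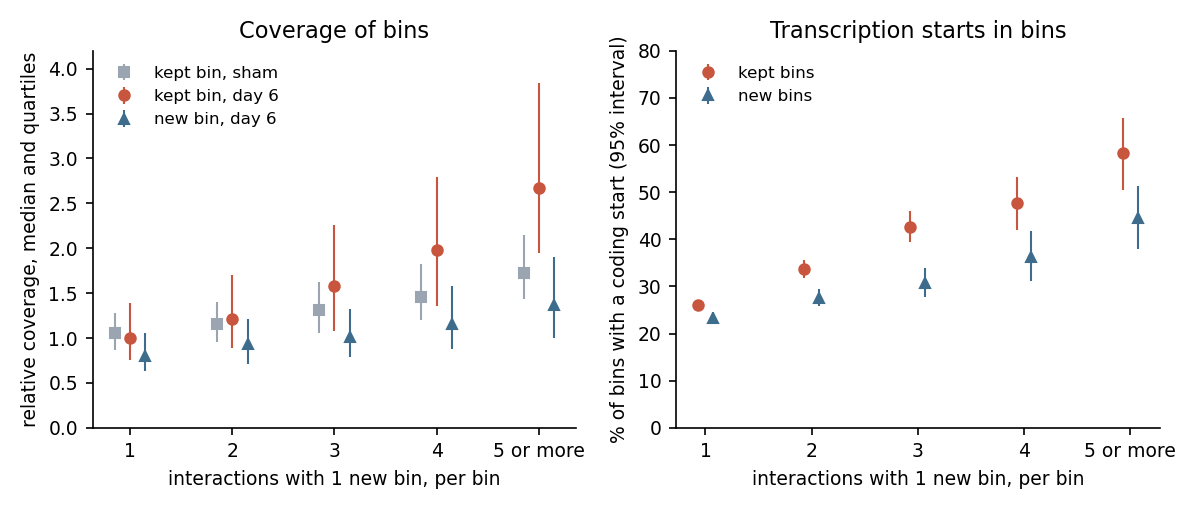
Left, relative coverage of bins (reads over the library constant; median and quartiles) by the number of member interactions a bin has; right, percent of bins holding a coding transcription start with exact 95% intervals. Kept bins at day 6 rise above their sham values from 2 members on, and 58.24% of kept bins with 5 or more members hold a start.

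Among the kept bins with the most members, that of Ewsr1 and Rhbdd3 on chromosome 11 (5090001 to 5100000) had 14 with 406 contacts (367.5 to 447.5). Ewsr1 encodes an RNA-binding protein. Its relative coverage was 2.456 in sham and 6.172 at day 6, and in sham it had 52 contacts over all its called interactions. The strongest new partners were bins on Gas2l1 and Rasl10a, with 67 contacts at 40 kb, and on Ap1b1, an adaptor subunit of vesicle transport, with 60. Another new partner was the bin of Osm, the cytokine oncostatin M, with 15 contacts at 860 kb. Poldip3 had 13 members with 339 contacts, of which the third strongest, with 35, reached Tspo, the mitochondrial protein imaged as a marker of reactive microglia.

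Klf6, a zinc finger transcription factor of macrophage activation, had 8 members with 291 contacts (258.5 to 326.4) in the kept bin that holds its start (chr13:5860001-5870000). Relative coverage there was 3.465 in sham and 7.045 at day 6. The new bins stood at 80 kb with 83 contacts, 140 kb with 45, 90 kb with 40, 560 kb with 38, 270 kb with 31 and 240 kb with 24, and none of these 6 lay on a coding gene. The member at 560 kb had 9.851 times the expected contacts. Of the 8 new partners, 7 lay upstream of Klf6 and 1 lay 380 kb downstream. The 3 sham partners of the bin were upstream too, at 250 kb with 25 contacts, 350 kb with 16 and 1100 kb with 11, and the first 2 were called again at day 6 with 19 contacts each.

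Hivep2, a zinc finger factor that binds kappa B-like sequences, had 9 members with 242 contacts in its start bin. Relative coverage there was 1.846 in sham and 4.094 at day 6. Its strongest new partners lay within Hivep2 at 80 kb with 48 contacts and on Aig1 at 100 kb with 40. The bin of Daxx, Tapbp and Zbtb22 in the major histocompatibility complex had 8 members with 356 contacts, among them a bin on Kifc1 with 93 and 1 on H2-K1, a class I heavy chain, with 33. Suds3 and Taok3 shared a kept bin with 8 members, of which those with 80, 54 and 43 contacts reached new bins within Taok3, a protein kinase.

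Of the new bins, that of Fzr1 on chromosome 10 (81370001 to 81380000) had the most members, 11 with 313 contacts (279.3 to 349.7) and a relative coverage of 3.187. Fzr1 encodes Cdh1, an activator of the anaphase-promoting complex. Its kept partners included Nfic, a transcription factor, with 65 contacts at 60 kb, the bin of Apba3, Matk and Mrpl54 with 50, and the bin of Gpx4, the lipid peroxidase, and Sbno2 with 15. Mlxip, a glucose-sensing transcription factor, had 10 members with 250 contacts, of which the strongest joined Bcl7a, a chromatin remodelling subunit, with 50 at 20 kb. The weakest of the 10 had 12 contacts. Pde4a, a phosphodiesterase that degrades cyclic AMP, had 8 members with 220 contacts, whose kept ends lay on Keap1, the sensor of oxidative stress, with 48, on Icam1, an adhesion molecule, with 27 and on Smarca4 with 26.

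A pair of the 10 new bins with the most members held no coding gene. That at chr7:126730001-126740000 had 8 members with 305 contacts, of which 86 joined the bin of Aldoa and Ppp4c, 60 that of Coro1a, an actin regulator of leukocytes, and 32 a second bin of Aldoa. That at chr4:132800001-132810000 had 390 contacts over 8 members, with 67 to Themis2, 64 and 62 to Rpa2, and 56 to Smpdl3b. All the new bins named with the most members lay 10 kb from a sham anchor, save that of Cd84 at 20 kb.

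**Figure D4:**
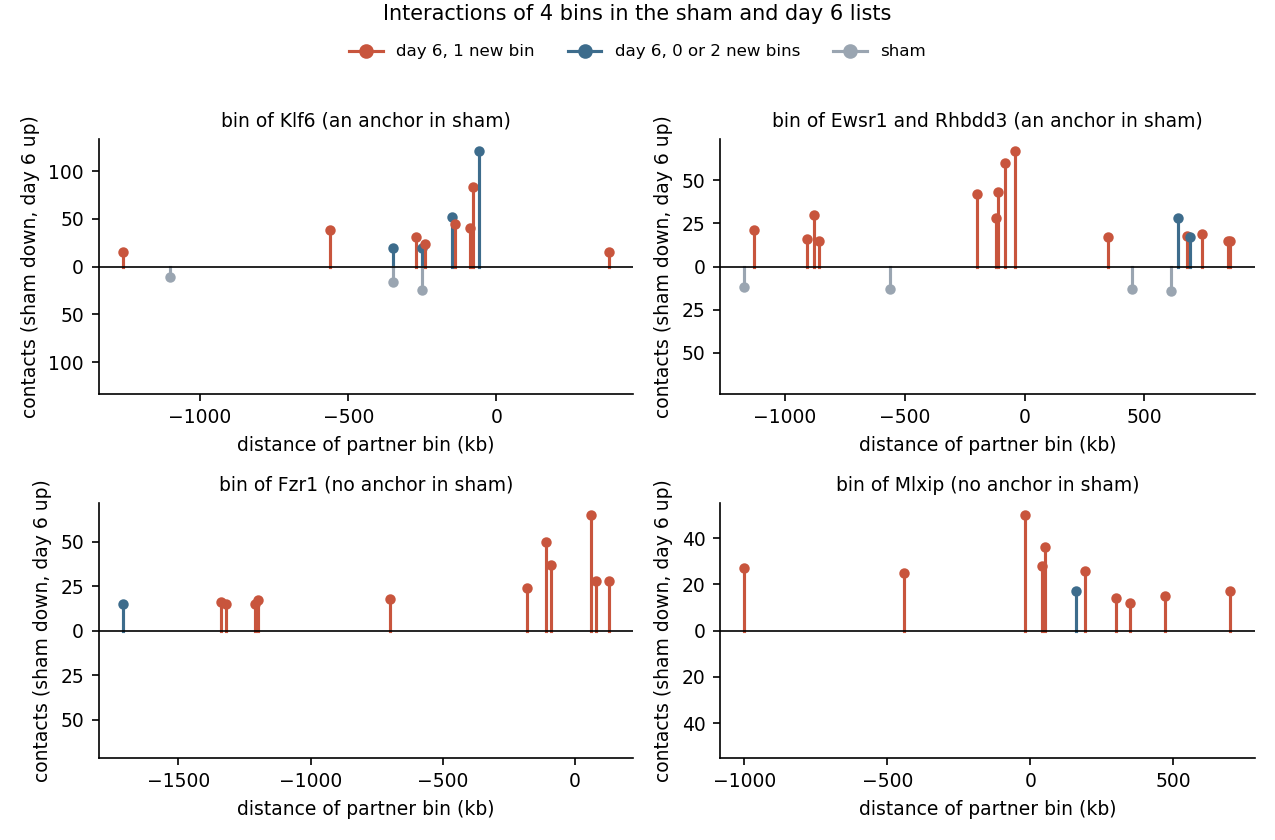
Interactions of 4 bins by distance of the partner bin in kb (negative, towards lower coordinates); height is contacts, day 6 above the line and sham below. Red marks the members, blue the other day 6 interactions and grey the sham interactions; Klf6 has 8 members, Ewsr1 and Rhbdd3 14, Fzr1 11 and Mlxip 10, and the last 2 have no sham interaction.

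Single members with the most contacts were short. The top 10 all spanned 20 kb, led by a pair of bins on chromosome 10 without a coding gene (19040001 and 19060001), with 197 contacts (170.4 to 226.5), 2.193 times the expected. Next came the bin of Zfp36, which encodes an mRNA-destabilising protein, and Plekhg2, with 195 contacts to Med29, Paf1 and Samd4b. Nfkb2, the precursor of an NF-kB subunit, had 187 contacts to the bin of Cuedc2, Fbxl15 and Psd, 3.836 times the expected. Itgb2, the beta chain of leukocyte integrins, had 141 within the gene.

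By the caller's q-value the first member joined Senp5, a SUMO protease, to Fbxo45 and Wdr53 over 240 kb, with 95 contacts where 6.555 were expected. The second joined Jun, an AP-1 subunit, to a new bin 150 kb away without a coding gene, with 79 contacts against 7.558. Of the 10 members with the highest ratio to the expectation, 7 were on chromosome X, led by a 20 kb pair with 31 contacts against 0.8859. Coverage was low there, with a median relative coverage of 0.3504 for new bins, and the day 6 list held only 1.207 times as many X interactions as the sham list. Members were 29.18% of day 6 interactions on X, 31.63% on chromosome 9 and 45.28% (43.44 to 47.13) on chromosome 11, where the day 6 list was 3.072 times the sham list.

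Genes lay at most ends. A protein-coding gene, taken with 1 kb on each side, lay at both bins in 65.81% of members, at the new bin only in 13.02%, at the kept bin only in 14.37% and at neither in 6.805%. A transcription start lay at both bins in 12.42%, at the new bin only in 16.24% and at the kept bin only in 22.53%. Both bins lay on the same gene in 11.28%. Among 13423 genes with a day 6 interaction, 6719 (50.1%) lay on a new bin and 6684 (49.8%) on a kept bin, 2782 of them on both. There were 2999 genes (22.3%) on a new bin that had no sham interaction. Of the 9053 genes with an interaction in each list, 73.8% lay on a kept bin and 41.1% on a new bin. Only genes with a sham interaction can lie on a kept bin, and a longer gene or more interactions give more chances, so the shares of the lists below are set beside these values with no test.

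The genes with the most contacts on new bins were mostly long. Zmiz1, a transcriptional coactivator, had 575 contacts (529 to 624) in 17 members over 9 new bins, the strongest of which joined bins within the gene, with 73 contacts at 60 kb. Hivep3 had 572, Frmd4a 515, Vmp1, an autophagy protein, 472, and Dyrk1a, a protein kinase, 435. Of the 20 genes with the most, 3 had no sham interaction: Canx, a chaperone of the endoplasmic reticulum, with 383 contacts, Zbtb4 with 358 and Use1 with 353. Each had 11 members. The new bin that holds the start of Canx had 2503 reads and joined Cby3 with 50 contacts and Hnrnph1 with 44, while a second, with 3439 reads, joined Tbc1d9b with 55 contacts at 150 kb. Genes in the same bin share its contacts: the new bins of Use1 also lay on Myo9b, Nr2f6 and Ocel1, those of Zbtb4 on Chrnb1 and Slc35g3, and those of Canx on Maml1.

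Genes of microglial identity were more often on a kept bin than on a new bin, as were all genes with interactions in both lists. Of 29 homeostatic genes with a day 6 interaction, 23 (79.31%) lay on a kept bin and 9 (31.03%) on a new bin, against 49.8% and 50.1% of all genes. Among the 28 with interactions in both lists, 23 (82.14%) lay on a kept bin, against 73.8% of all such genes. With lists of equal length it was 53.85% against 52.68%, and by transcription starts 57.89% against 69.19%. Housekeeping genes had a similar share on a new bin, 31.25%. P2ry12, the purinergic receptor that guides microglial processes, had 7 members with 145 contacts, all from kept bins, of which the strongest reached Mbnl1 over 1260 kb with 35. Itgb5, an integrin chain, had 12 members with 205 contacts, also all from kept bins. Tgfbr2, a receptor of TGF-beta, had both, with 246 contacts from kept bins and 128 on 1 new bin within the gene.

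Of 33 transcription factors of microglia, 28 (84.85%) lay on a kept bin and 12 (36.36%) on a new bin, against 49.8% and 50.1% of all genes. All 28 were among the 32 with interactions in both lists (87.5%), against 73.8% of all such genes. With lists of equal length it was 68.75% against 52.68%, and by transcription starts 62.5% against 69.19%. Runx1, a factor of blood and macrophage development, had 332 contacts from kept bins and 341 on new bins, many joining bins within the gene. Tfeb, which drives lysosomal genes, had 184 contacts on new bins, of which 54 joined a kept bin within Tfeb. Spi1, which encodes PU.1, had 3 members from a kept bin with 86 contacts and none on a new bin, while Irf8 and Sall1 lay on no member at all, with 15 and 11 day 6 interactions.

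AP-1 and immediate early factors lay on a kept bin in 19 of 21 cases (90.48%) and on a new bin in 8 (38.1%), against 49.8% and 50.1% of all genes. Among the 20 with interactions in both lists, 19 (95%) were on a kept bin, against 73.8% of all such genes. With lists of equal length it was 11 of 20 (55%) against 52.68%. Fosl2, an AP-1 subunit, had 5 members with 109 contacts, all from kept bins, and Jun had 2 with 102. Jun had 13 interactions in each list. Nr4a1, an orphan nuclear receptor, had 135 contacts from kept bins and 73 on the new bin that holds a start, where the strongest pair had 50. Batf had 107 and 46.

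The NF-kB subunits and inhibitors had 12 of 15 genes (80%) on a kept bin, close to the 73.8% of all genes with interactions in both lists, as all 15 had. On a new bin lay 8 (53.33%), against 41.1% of all genes with interactions in both lists and 50.1% of all genes. Nfkb2 had 255 contacts in 4 members, all from kept bins, 1 of which joined Ldb1 with 17 contacts at 260 kb. Tnfaip3, the ubiquitin-editing inhibitor of NF-kB, had 6 members with 169 contacts, all from kept bins to new bins without coding genes, at 30 to 560 kb. Rela, a transactivating subunit, had 188 contacts on new bins and 115 from kept bins, and Rel had 118 and 131. Nfkb2 and Tnfaip3 were thus kept ends only, and Rela and Rel were both kept and new ends.

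Of the inflammatory mediators, 9 of 22 (40.91%) lay on a kept bin, against 49.8% of all genes. On a new bin lay 10 (45.45%), near the 50.1% of all genes, and this share was above that of all genes in 3 of 11 alternatives. Only 13 had a sham interaction, and of these 9 (69.23%) lay on a kept bin, near the 73.8% of all such genes. On a new bin lay 3 of the 13 (23.08%), against 41.1% of all such genes. The other 7 on a new bin had no sham interaction. Nlrp3, the inflammasome sensor, had 109 contacts on a new bin with its start (2528 reads), of which 84 went to a kept bin 20 kb away and 25 to another at 310 kb. Ccl12, a monocyte chemoattractant, had 65 contacts at a new bin with its start, with 34 and 31 to a pair of kept bins 100 and 80 kb away without a coding gene. Cxcl10, an interferon-induced chemokine, had 49, of which 32 joined a bin of Scarb2. Nos2, the inducible nitric oxide synthase, had 97 in 5 members. Il1b, in contrast, had 98 contacts from kept bins and none on a new bin, and Il1a had 127 from kept bins and 33 on a new bin.

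Interferon response genes lay on a new bin and on a kept bin in 10 of 20 (50%) each, near the 50.1% and 49.8% of all genes. Ifih1, the RNA sensor MDA5, had no sham interaction and 86 contacts on new bins, all to the bin of Gca. For antigen presentation, 15 of 19 genes (78.95%) lay on a kept bin and 9 (47.37%) on a new bin, against 49.8% and 50.1% of all genes. Of the 17 in both lists, 15 (88.24%) lay on a kept bin, against 73.8% of all such genes. That share was above the one of all such genes in 7 of 11 alternatives. With lists of equal length it was 4 of 17 (23.53%) against 52.68%, and with q-values under 0.00001 it was 53.85% against 72.62%. Cd80, a costimulatory ligand, had 153 contacts on new bins in 7 members, and Cd86 had 128 from kept bins and none on new bins.

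Scavenger and phagocytic receptors lay on a new bin in 13 of 20 cases (65%) and on a kept bin in 16 (80%), against 50.1% and 49.8% of all genes. Among the 19 with interactions in both lists, 16 (84.21%) lay on a kept bin, against 73.8% of all such genes. On a new bin lay 12 of the 19 (63.16%), against 41.1%. Of those with a day 6 interaction, the share on new bins was below that of all genes in 5 of 11 alternatives. It was 20% when adjacent sham anchors counted and 7.692% by transcription starts. Itgb2 had 233 contacts on new bins and 227 from kept bins, and Scarb2, a lysosomal membrane receptor, had 380 from kept bins and 64 on a new bin. Among 27 disease-associated microglia genes, 13 (48.15%) lay on a new bin and 15 (55.56%) on a kept bin, against 50.1% and 49.8% of all genes. Of the 18 with interactions in both lists, 15 (83.33%) lay on a kept bin, against 73.8% of all such genes. Ctsb, a lysosomal protease, had 132 contacts on new bins, of which 76 and 43 joined 1 kept bin without a coding gene at 60 and 70 kb. Axl, a receptor of apoptotic cells, had 113 from kept bins and none on new bins. Trem2, a lipid receptor, had 63 from kept bins and 14 on a new bin.

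Tissue repair and growth factor genes lay on new and kept bins alike, 8 of 19 (42.11%) each, against 50.1% and 49.8% of all genes. Of the 19, 5 lay on a new bin and had no sham interaction, as did 22.3% of all genes. Plaur, the urokinase receptor, had 165 contacts in 6 members on new bins, of which 52 joined Irgc1 at 30 kb, 36 the bin of Cadm4 and Zfp428 and 27 Kcnn4. Tgfbi, a matrix protein induced by TGF-beta, had 83 contacts in 4 members and no sham interaction, with 37 at 30 kb. Plau, which encodes urokinase, had 115 on new bins. Tgfb1 had 178 contacts from kept bins and none on new bins.

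Glycolysis and hypoxia genes lay on a new bin in 12 of 20 cases (60%), against 50.1% of all genes. On a kept bin lay 8 (40%), against 49.8%. Of the 20, 7 lay on a new bin and had no sham interaction, as did 22.3% of all genes. Among the 12 with interactions in both lists, 5 (41.67%) lay on a new bin, against 41.1% of all such genes. On a kept bin lay 8 of these 12 (66.67%), against 73.8%. Eno1, enolase, had 157 contacts in 6 members, of which 65 joined a bin 20 kb away. Tpi1, triosephosphate isomerase, had 147, of which 58 joined the bin of Cdca3 and Usp5, and Eno2 had 308 in 11 members. Eno2 and Tpi1 lie in 1 gene-dense stretch of chromosome 6 and share bins with neighbours, Eno2 with Atn1 and Lrrc23 and Tpi1 with Spsb2 and Usp5. Slc2a1, a glucose transporter, had 86, and Aldoa had 194 from kept bins.

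Lysosome and lipid handling genes lay on a new bin in 12 of 21 (57.14%) and on a kept bin in 14 (66.67%), against 50.1% and 49.8% of all genes. Among the 17 with interactions in both lists, 14 (82.35%) lay on a kept bin, against 73.8% of all such genes. On a new bin lay 9 of the 17 (52.94%), against 41.1%. Abcg1, a cholesterol exporter, had 129 contacts on new bins, 45 of them to a bin 50 kb away. Cell cycle genes lay on a new bin in 13 of 22 (59.09%) and on a kept bin in 12 (54.55%), against 50.1% and 49.8% of all genes. Among the 13 with interactions in both lists, 12 (92.31%) lay on a kept bin, against 73.8% of all such genes. On a new bin lay 6 of the 13 (46.15%), against 41.1%. Aurkb, a mitotic kinase, had 243 contacts on new bins and no sham interaction, but 145 of these ran from the bin of Aurkb to that of Borcs6 and Tmem107. The looping and mediator genes had 9 of 21 (42.86%) on a new bin, below the 50.1% of all genes. Among them was Ldb1, a bridging factor of enhancers and promoters, with 115 contacts and no sham interaction. Housekeeping genes had 5 of 16 (31.25%) on a new bin and 10 (62.5%) on a kept bin. Among the 14 with interactions in both lists, 10 (71.43%) lay on a kept bin, near the 73.8% of all such genes.

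**Figure D5:**
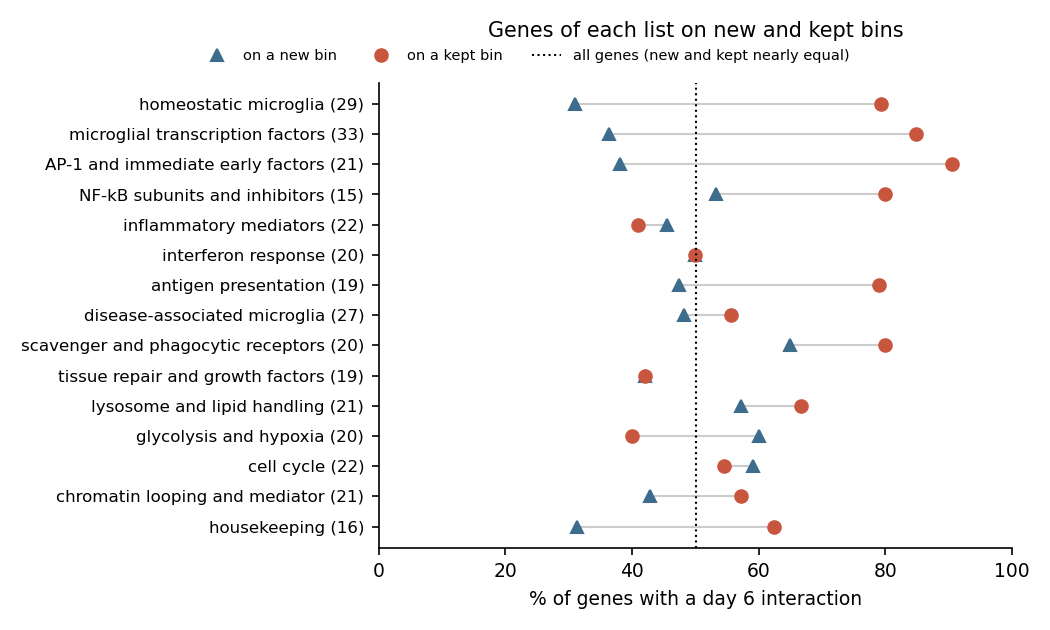
Percent of the genes of each list with a day 6 interaction (their number in brackets) that lay on a new bin (triangles) and on a kept bin (circles); the dotted line is the share of all genes on a new bin, 50.06%. AP-1 and immediate early factors stand at 90.48% on kept bins and glycolysis and hypoxia genes at 40%.

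Some kept bins were near the threshold that made them sham anchors. The best sham q-value was over 0.0005, just inside the list's limit of 0.001, for 979 of 10153 kept bins (9.642%) and for the kept bin of 9.242% of members. Among day 6 interactions between 2 sham anchors, 12.35% had such a bin. Bins just outside the limit are not analysed here. In the opposite direction, 2388 of 19061 sham interactions (12.53%, 12.06 to 13.01) had exactly 1 anchor that was none at day 6.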

How the data were processed

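H3K27ac HiChIP interactions of 1 sham and 1 day 6 library were analysed. Per the submitters' processing notes, HiC-Pro 3.1.0 was used with the builds mm10 and GRCm38, while the caller of interactions was not given in the sources used here. Per the file headers, the deposited contact counts and coverage counts are whole, unscaled reads per pair of 10 kb bins and per bin. The deposited bias is a ratio of a bin's coverage to 1 constant per library. The expected contacts are a signal deposited with the contacts, and the p-values and q-values deposited are those of the authors' caller, all under 0.001. Columns on mappability, restriction sites and GC content were all 0 and left out.

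An anchor was a bin of any listed interaction, and members were found by exact bin. Genes were protein-coding RefSeq spans of GRCm38.p6 with 1 kb on each side, and starts came from the RefSeq promoter table (17492 coding genes). Members and gene lists were chosen with earlier results of these data known. The genes named were those on the 10 new and 10 kept bins with the most members, on the 10 members with the most contacts and the 10 with the highest ratio to expectation, the 20 genes with the most contacts on new bins, and up to 4 per list by contacts on new bins and 4 by contacts on kept bins. Genes at the other end of a named bin or gene are named as partners. Spi1, Irf8 and Sall1, the members with the smallest q-values the 7 printed promoters and the motif letters were picked after values were seen. Python 3.11.15, pandas 2.3.3 and SciPy 1.17.1 were used, and the sorting of interactions was tested on simulated lists. With 1 library per group there was no test between conditions.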

Additional observations from a re-analysis of the deposited data

How the results depend on the processing

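No paired analysis was possible because each group had 1 library. With q-values under 0.00001 in both lists there were 8510 interactions with 1 new anchor, with a median of 25 contacts, 36.15% with a new bin beside a sham anchor and a log2 coverage of new over kept bin of -0.4366; their share was 38.08%. With the day 6 list shortened to the length of the sham list there were 6676 (35.02%), with 24 contacts, 47.3% beside a sham anchor, -0.4367 in coverage and 4162 genes on new bins. When a sham anchor in an adjacent bin counted too, 11702 were left, 27.27% of the list, with 18 contacts and -0.3678. Without interactions under 50 kb the share was 40.69%, with 18 contacts and 42.48% beside a sham anchor; without those of 1 Mb or more it was 37.2%, with 20 contacts, 46.28% and -0.3961. Without bins of 10 or more day 6 interactions it was 39.68%, with 44.09% and -0.3601. By transcription starts alone 2904 genes lay on new bins; no flank, a 5 kb flank and gene ends gave 6446, 7562 and 5111. Leaving out chromosome X, chosen after seeing the data, gave 38.19% and moved none of the 6 results beyond its interval or by over 1.5 times. Over all alternatives, that one included, 24 values of the 6 results moved by this measure and 21 did not.

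Genes with interactions in both lists were a base chosen after seeing the data. On it the share on kept bins was above that of all such genes in 11 of 11 alternatives for AP-1 and cell cycle genes. It was above in 10 for homeostatic, scavenger and interferon genes and in 9 for the transcription factor and NF-kB lists. For antigen presentation, disease-associated, lysosome and looping genes the count was 7, and for glycolysis genes 5. For housekeeping genes it was 2, and for inflammatory mediators and repair genes 1. On the base of all genes with a day 6 interaction, AP-1 factors had the highest share on kept bins of the lists in 7 of 11. Glycolysis and hypoxia genes had a higher share on new bins than all genes in 10 of 11, cell cycle and lysosome genes in 9, scavenger and NF-kB genes in 6 and the interferon, disease-associated, antigen presentation and repair lists in 5. The median ratio of deposited expected contacts to the caller's deposited probability gave 3629250 modelled contacts for sham and 2258259 for day 6. What this means for which bins are new was not tested. The depth of the libraries beyond the called interactions is not analysed further here, so contacts below the caller's limit are unknown.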
